A study of Mus musculus with 4 samples.

Results

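Smooth muscle contractile genes were followed in 4 mouse colon tumour libraries as a measure of the muscle transcripts in each sample. The 10 genes were taken by symbol (Acta2, Actg2, Myh11, Des, Cnn1, Tagln, Lmod1, Synm, Smtn and Myocd), and all 10 were found among the 26214 gene symbols of the count tables. The study compared transcriptomes of such tumours with and without epithelial GSK3B, a kinase that restrains Wnt signalling by phosphorylating beta-catenin. Both groups carried colon tumours raised with AOM (azoxymethane, a carcinogen) and DSS (dextran sulfate sodium, an agent that causes colitis). One group was labelled Gsk3b (IEC-/-) and the other Gsk3b (IEC+/+), where IEC stands for intestinal epithelial cells, with 2 libraries in each. The labels give no strain, age, sex, time point, Cre driver or deleted exons, and leave unsaid if each library is a mouse of its own. P-values therefore measure only the spread between these libraries, which may be technical.

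Smooth muscle cells contract when myosin filaments pull on thin filaments of smooth muscle actin, and intermediate filaments of desmin and synemin tie the contractile units together. In the colon wall such cells form the muscularis propria and the thin muscularis mucosae, and they also coat blood vessels. Myocardin, a coactivator of serum response factor, switches on many contractile genes through a promoter element called the CArG box. Activated fibroblasts and pericytes make smooth muscle alpha-actin and transgelin as well. In bulk tissue, fewer muscle cells and less contractile RNA per cell cannot be told apart.

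Total counts were 26599419 and 25472503 in the IEC-/- libraries and 27135796 and 27218515 in the IEC+/+ libraries, so depth differed little. Gsk3b itself had 152 and 149 CPM (counts scaled to TMM-adjusted library size) in IEC-/- tumours, against 170 and 157 CPM in IEC+/+ tumours, which did not pass the test (edgeR quasi-likelihood adjusted p = 0.681). With the deleted exons not given, and with Gsk3b made by non-epithelial cells too, this count does not check the labels. Epithelial transcripts were abundant in each library, with Epcam at 1270 and 1045 CPM in IEC-/- tumours, against 1398 and 1444 CPM in IEC+/+ tumours. Of 12 markers of striated muscle, Myh1, Myh2, Myh4 and Myh6 had no count in any of the 4 libraries. The 3 with enough counts to be tested were Tnnt2 (3.56 to 7.13 CPM), Acta1 (1.37 to 3.32 CPM) and Mylpf (0.572 to 1.15 CPM).

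Both smooth muscle actin genes were compared at the sequence level, because near-identical copies could share reads. The first 90 bases of the longest open reading frame of each are shown from the GENCODE M21 transcripts (GRCm38), with capitals marking bases that differ from the other gene or have no partner there.
Acta2: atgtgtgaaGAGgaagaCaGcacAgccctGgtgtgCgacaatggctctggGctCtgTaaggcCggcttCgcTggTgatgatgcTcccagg
Actg2: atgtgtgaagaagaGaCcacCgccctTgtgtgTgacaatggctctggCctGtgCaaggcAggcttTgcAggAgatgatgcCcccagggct
Over the whole frames 955 of 1131 aligned bases were identical (84.4%). Of the 150-base windows of annotated Acta2 and Actg2 transcripts, the length of 1 sequenced read, 0 occurred in the transcripts of another gene. At 50 bases, 0.326% of the Acta2 windows and 0% of the Actg2 windows did.

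The promoter is shown for Acta2 because it holds 2 relaxed matches to the CArG box. RefSeq (GRCm38.p6) promoter windows, 250 bases before to 50 after the start site that the promoter table uses, were matched for 6 of the 10 genes (Acta2, Des, Cnn1, Lmod1, Synm and Smtn). The Acta2 window lies on the minus strand at chr19:34255324-34255623, and capitals mark the matches, CCCTATATGG and CCTTGTTTGG, which start 84 and 34 bases before that start site. For Acta2 the site lies inside the gene span of the RefSeq gene annotation given with its values, so both matches also fall inside that span.
Acta2 promoter: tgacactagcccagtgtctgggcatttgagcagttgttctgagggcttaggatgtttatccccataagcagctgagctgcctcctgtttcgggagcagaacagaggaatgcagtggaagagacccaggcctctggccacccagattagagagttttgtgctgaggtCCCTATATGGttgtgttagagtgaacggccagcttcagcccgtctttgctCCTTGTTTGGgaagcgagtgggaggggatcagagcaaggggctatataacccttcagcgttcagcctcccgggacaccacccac
These are relaxed matches, in which 1 of the 6 central bases was not A or T. The same relaxed form was found in the Synm window (CCTCATAAGG), so 2 of the 6 windows held it, against 9.98% of all 32851 promoter windows. The strict form was found in 0 of the 6 windows, against 1.63% of all windows. The element reads the same on both strands. A match is a description of the letters and says nothing of binding in these tumours.

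No contractile gene passed the test between the groups, and the spread between the IEC+/+ libraries was larger than most group differences. By edgeR's quasi-likelihood test 0 of the 10 genes were called at a Benjamini-Hochberg adjusted p under 0.05, against 0.884% of the 16637 genes tested (0.763% lower and 0.120% higher). At an unadjusted p under 0.05, 2 of the 10 (Des and Cnn1) were lower in IEC-/-, against 9.12% of all genes tested, and 0 were higher, against 7.50%. DESeq2 called 1 lower (Des), against 5.04% of the genes for which it gave an adjusted p, and 0 higher, against 2.95%. The exact test of edgeR called 0, against 5.30% (3.40% lower), and limma-voom called 0, against 0.469% (0.409% lower). Fold changes were below 0 for 9 genes and above 0 for 1, against 48.5% of all genes below 0. Their median log2 fold change was -0.48, beside 0.01 for all genes tested. The groups did not overlap for 3 genes, Des, Cnn1 and Myocd, all lower in IEC-/-, against 24.1% of all genes. A 2 against 2 comparison of a single value cannot go below p = 0.333 in a two-sided exact permutation test.

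**Figure D1:**
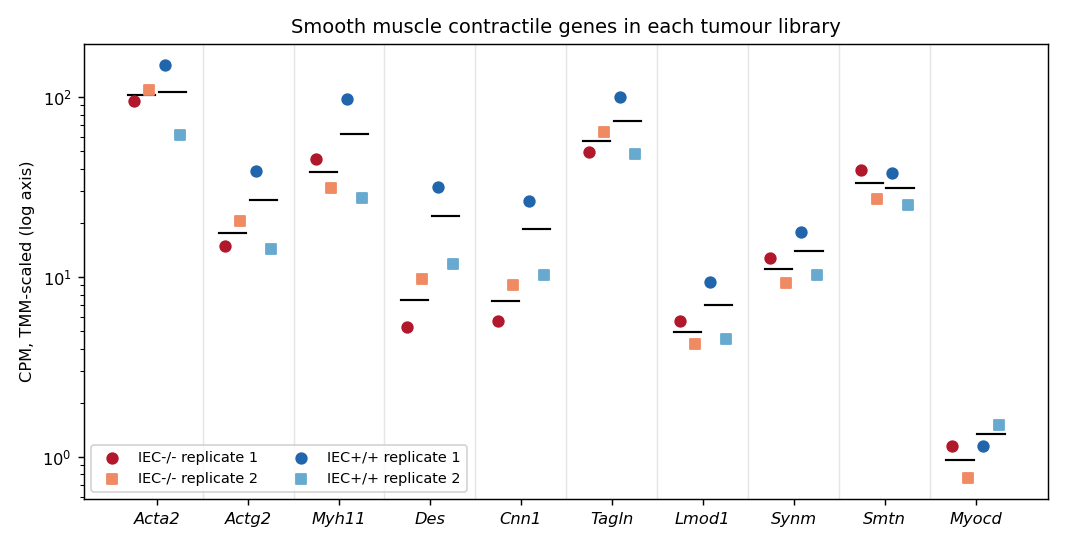
Level of each contractile gene in CPM of the TMM-scaled library size (log axis), with 1 point per library and a bar at each group mean (n = 2 each). IEC+/+ replicate 1 is the highest library for 8 of the 10 genes, and the IEC-/- libraries lie below both IEC+/+ libraries for Des, Cnn1 and Myocd.

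Of the actins, Acta2 encodes smooth muscle alpha-actin and lies on chromosome 19 (34240336 to 34255585, GRCm38, RefSeq). It had 95.1 and 110 CPM in IEC-/- tumours, against 152 and 61.7 CPM in IEC+/+ tumours. The IEC-/- values lay between the IEC+/+ values, and the group means were nearly equal, at 102 ± 10.3 CPM for IEC-/- tumours and 107 ± 63.6 CPM for IEC+/+ tumours (SD, n = 2 each). The log2 fold change was -0.06 (SE 0.40, edgeR adjusted p = 0.968), with a 95% interval of the IEC-/- to IEC+/+ ratio of 0.477 to 1.93. Actg2 encodes smooth muscle gamma-actin, the actin of the visceral muscle layers, and lies on chromosome 6 (83512909 to 83536251). It had 14.9 and 20.5 CPM in IEC-/- tumours, against 39.1 and 14.4 CPM in IEC+/+ tumours. Again the groups overlapped, with IEC+/+ replicate 1 standing above the other 3 libraries (log2 fold change -0.60, SE 0.48, edgeR adjusted p = 0.601).

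Myh11 encodes the smooth muscle myosin heavy chain, the motor of the contractile apparatus, and lies on chromosome 16 (14194527 to 14292188). It had 45.2 and 31.3 CPM in IEC-/- tumours, against 97.3 and 27.4 CPM in IEC+/+ tumours. The IEC+/+ libraries differed 3.55-fold from each other, the widest gap of the 10 genes, and their values enclosed both IEC-/- values. The means were 38.3 ± 9.84 and 62.4 ± 49.5 CPM in IEC-/- and IEC+/+ (SD, n = 2 each). The log2 fold change was -0.70 (SE 0.57, edgeR adjusted p = 0.606).

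The intermediate filament genes are Des and Synm. Des, which encodes desmin and lies on chromosome 1 (75360292 to 75368579), had 5.25 and 9.76 CPM in IEC-/- tumours, against 31.6 and 11.8 CPM in IEC+/+ tumours. Both IEC-/- values lay below both IEC+/+ values, but IEC-/- replicate 2 was much nearer to IEC+/+ replicate 2 than the IEC+/+ libraries were to each other. The means were 7.50 ± 3.19 and 21.7 ± 14.03 CPM in IEC-/- and IEC+/+ (SD, n = 2 each). The log2 fold change was -1.53 (SE 0.55), with an edgeR adjusted p of 0.259. Over the other tools and scalings run on all 4 libraries, the adjusted p of Des ran from 0.0323 by DESeq2 to 0.340 by limma-voom. Without IEC+/+ replicate 1 the log2 fold change of Des was -0.66, and without IEC-/- replicate 1 it was -1.16. Synm, which encodes synemin, a partner of desmin in the filament, lies on chromosome 7 (67730161 to 67759742). It had 12.8 and 9.26 CPM in IEC-/- tumours, against 17.9 and 10.2 CPM in IEC+/+ tumours, and these ranges overlapped (log2 fold change -0.35, SE 0.35, edgeR adjusted p = 0.685).

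Among the genes of actin-binding proteins, Cnn1 had the lowest fold change and Smtn the highest. Cnn1 encodes calponin, an inhibitor of the myosin motor, and lies on chromosome 9 (22099221 to 22109221). It had 5.72 and 9.07 CPM in IEC-/- tumours, against 26.6 and 10.3 CPM in IEC+/+ tumours. As for Des, the groups did not overlap, and IEC-/- replicate 2 and IEC+/+ replicate 2 lay close together. The means were 7.40 ± 2.37 and 18.4 ± 11.6 CPM in IEC-/- and IEC+/+ (SD, n = 2 each). The log2 fold change was -1.32 (SE 0.50), with an edgeR adjusted p of 0.286. Without IEC+/+ replicate 1 it was -0.48.

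Tagln encodes transgelin, an actin cross-linker of smooth muscle, and lies on chromosome 9 (45929628 to 45936058). It had 49.7 and 64.1 CPM in IEC-/- tumours, against 99.8 and 48.1 CPM in IEC+/+ tumours, with overlapping groups (log2 fold change -0.38, SE 0.35, edgeR adjusted p = 0.657). Tagln is the member whose reads are least certain. The annotation places Pcsk7 over the same locus, and 40.2% of its 150-base windows also occur in the unnamed gene model Gm48529. No 150-base window of Tagln occurs in Pcsk7 transcripts. At 50 bases, where 58.3% of the Tagln windows were shared, both Gm48529 and Pcsk7 held some. Strand use in the counting is not stated, so reads inside a stretch that Tagln and Pcsk7 share cannot be told apart. Pcsk7 had 55.1 and 56.6 CPM in IEC-/- tumours, against 69.8 and 63.3 CPM in IEC+/+ tumours, a narrower spread than that of Tagln. For Des, Synm and Smtn, 1.95%, 3.37% and 3.33% of the 150-base windows were shared with other gene models, and for the other 6 genes 0% were.

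Smtn encodes smoothelin, a protein of contractile smooth muscle, and lies on chromosome 11 (3517522 to 3539292). It had 39.3 and 27.1 CPM in IEC-/- tumours, against 37.7 and 25.2 CPM in IEC+/+ tumours. Replicate 1 was the higher library in both groups, and the group means differed by little, at 33.2 ± 8.66 and 31.5 ± 8.79 CPM in IEC-/- and IEC+/+ (log2 fold change 0.08, SE 0.27, edgeR adjusted p = 0.924). Lmod1 encodes leiomodin 1, which nucleates actin filaments in smooth muscle, and lies on chromosome 1 (135324813 to 135368065). It had 5.68 and 4.27 CPM in IEC-/- tumours, against 9.42 and 4.50 CPM in IEC+/+ tumours (log2 fold change -0.48, SE 0.43, edgeR adjusted p = 0.646). The other 3 libraries of Lmod1 lay close together below IEC+/+ replicate 1.

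Myocd, the gene of the coactivator myocardin, lies on chromosome 11 (65173608 to 65269989) and was barely counted. It had 32 and 20 counts in IEC-/- and 30 and 40 counts in IEC+/+, which is 1.15 and 0.762 CPM in IEC-/- tumours, against 1.16 and 1.51 CPM in IEC+/+ tumours. The lowest and the highest of these counts have exact Poisson intervals of 12.2 to 30.9 for IEC-/- replicate 2 and 28.6 to 54.5 for IEC+/+ replicate 2 (95%, counting error only). These intervals meet, which is not a test of a difference. Its groups did not overlap in CPM only because 1.15 and 1.16 CPM fell on different sides. The group difference did not pass the test (log2 fold change -0.48, SE 0.51, edgeR adjusted p = 0.707). The part of low counts in this was not tested. Unlike 8 of the other genes, Myocd was not highest in IEC+/+ replicate 1 but in IEC+/+ replicate 2.

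**Figure D2:**
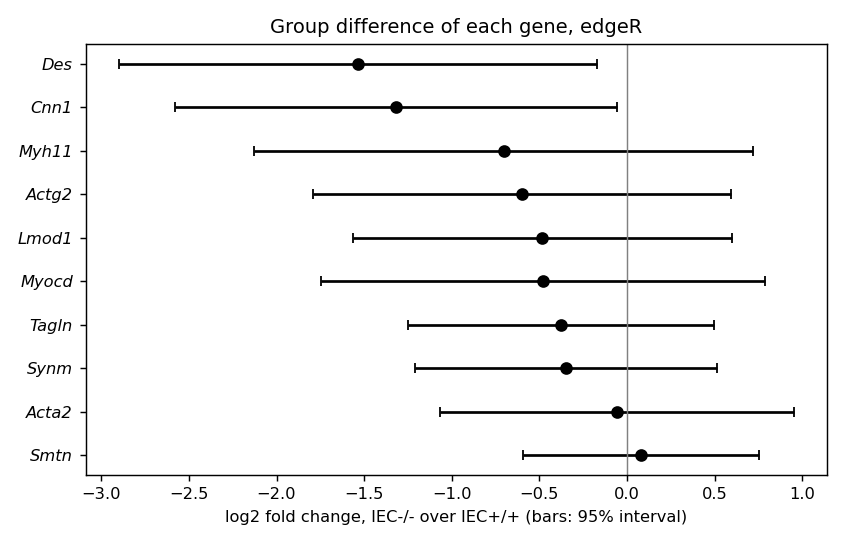
Log2 fold change of IEC-/- over IEC+/+ for each contractile gene (edgeR, n = 2 each), with bars for the 95% interval of that single gene, not adjusted for the number of genes. Only the intervals of Des and Cnn1 exclude 0, and their adjusted p-values over all genes are 0.259 and 0.286.

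Levels were compared between the genes as CPM per kilobase of merged exons (GENCODE M21), averaged over the 4 libraries. Acta2 (47.6) stood first, then Tagln (32.9), Actg2 (14.3), Smtn (7.38), Myh11 (6.62), Cnn1 (4.72), Des (3.89), Synm (1.58), Lmod1 (1.51) and Myocd (0.178 CPM per kilobase). Acta2 exceeded Tagln, Tagln exceeded Actg2 and Actg2 exceeded Smtn in each of the 4 libraries. Other neighbours changed places in 1 library each: Smtn and Myh11 in IEC+/+ replicate 1, Myh11 and Cnn1 in IEC+/+ replicate 2, Des and Synm in IEC-/- replicate 1, and Synm and Lmod1 in IEC+/+ replicate 1. Cnn1 exceeded Des, and Lmod1 exceeded Myocd, in each library.

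Summed over the 10 genes, contractile transcripts made up 275 and 286 CPM in IEC-/- tumours, against 512 and 215 CPM in IEC+/+ tumours. The IEC-/- libraries thus lay close together and between the IEC+/+ libraries, which differed 2.38-fold. IEC+/+ replicate 1 was the highest library for 8 genes, against 26.2% of all genes tested. It exceeded IEC+/+ replicate 2 at least 2-fold for 7 of the 10 genes, against 4.05% of the 16559 genes compared, and the median log2 difference of the 10 genes was 1.18, beside 0.01 for all. Between the IEC-/- libraries no member differed 2-fold, against 10.2% of all genes, and the median log2 difference of replicate 1 over replicate 2 was 0.10.

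**Figure D3:**
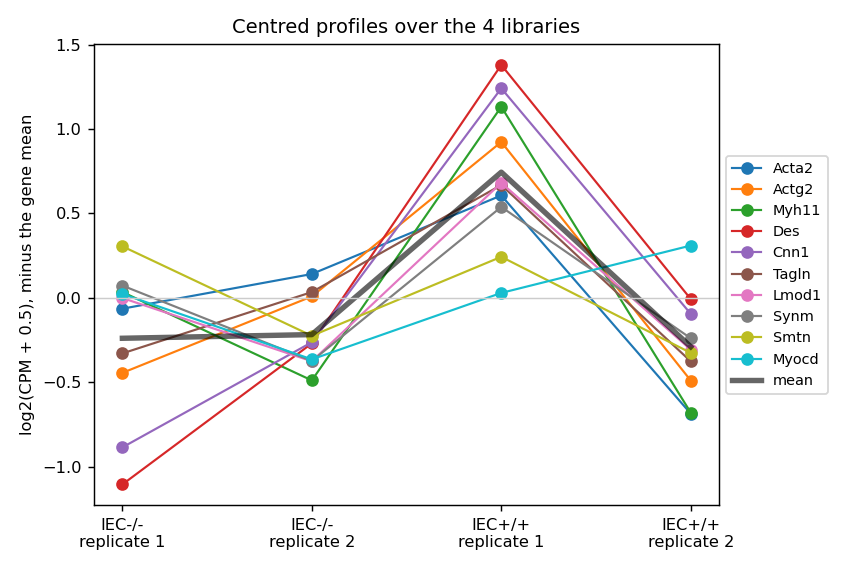
Profile of each contractile gene over the 4 libraries as log2(CPM + 0.5) minus the gene's mean, with the mean of the 10 genes as a thick line. The mean stands at 0.74 in IEC+/+ replicate 1 and between -0.29 and -0.22 in the other 3 libraries, while Smtn and Myocd do not peak there.

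The 2 IEC-/- libraries split the genes into sets of 5. IEC-/- replicate 1 was the higher for Myh11, Lmod1, Synm, Smtn and Myocd, and IEC-/- replicate 2 for Acta2, Actg2, Des, Cnn1 and Tagln. The widest gaps were a log2 difference, replicate 1 over replicate 2, of -0.89 for Des and 0.59 for Myocd.

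Proportions among the contractile transcripts were also set side by side. Acta2 is made by myofibroblasts and pericytes too, whereas Myh11 is more restricted to smooth muscle. The count ratio of Acta2 to Myh11 was 2.10 and 3.50 in IEC-/- and 1.56 and 2.25 in IEC+/+, with overlapping groups and a mean log2 difference of 0.53. With Des in place of Myh11 the ratio was 18.1 and 11.2 in IEC-/- and 4.79 and 5.22 in IEC+/+, and the groups did not overlap. The log2 ratio of Acta2 to Des averaged 3.84 ± 0.49 in IEC-/- and 2.32 ± 0.09 in IEC+/+ (SD, n = 2 each). With Cnn1 it was 3.83 ± 0.33 in IEC-/- and 2.55 ± 0.06 in IEC+/+. Des and Cnn1 had the lowest log2 fold changes of the 10 genes (-1.53 and -1.32), while Acta2 had -0.06. The ratios to Des and Cnn1, and the share of Des below, therefore restate those fold changes and are no separate result. The IEC+/+ libraries differed 2.46-fold in Acta2 itself. As a share of the counts of the 10 genes, Des was 1.91% (95% Wilson interval 1.63 to 2.24) and 3.41% (3.03 to 3.85) in the IEC-/- libraries. In the IEC+/+ libraries it was 6.18% (5.78 to 6.60) and 5.49% (4.93 to 6.11). These intervals cover counting error only, and the exact permutation test of such ratios at 2 against 2 libraries cannot go below p = 0.333.

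Leaving out IEC+/+ replicate 1 moved 6 fold changes across 0. Without IEC+/+ replicate 1, 7 of the 10 genes had log2 fold changes above 0, against 52.6% of all genes, and the median was 0.19. Acta2 then had 0.73 and Myh11 0.48, while Des (-0.66), Cnn1 (-0.48) and Myocd remained below 0. At an unadjusted p under 0.05, 1 gene was higher (Acta2, edgeR adjusted p = 0.519), against 3.35% of all genes, and 0 were lower, against 4.66%. Without IEC+/+ replicate 2 all 10 genes were below 0 with a median of -0.87, against 53.1% of all genes above 0. Then 6 genes (Acta2, Actg2, Cnn1, Des, Myh11 and Tagln) were lower at an unadjusted p under 0.05 by edgeR, against 6.33% of all genes, and 0 were higher, against 3.82%. The smallest adjusted p of the 10 was 0.291. Without IEC-/- replicate 1, 1 gene (Acta2, 0.03) was above 0, against 49.2% of all genes, and 0 were lower or higher at an unadjusted p under 0.05, against 9.30% and 8.74%. Without IEC-/- replicate 2, 1 gene (Smtn, 0.32) was above 0, against 48.9%, and 2 (Des and Cnn1) were lower, against 9.63%, with 0 higher, against 7.17%. In each of these fits the lone library of a group was assumed to vary like the other group.

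**Figure D4:**
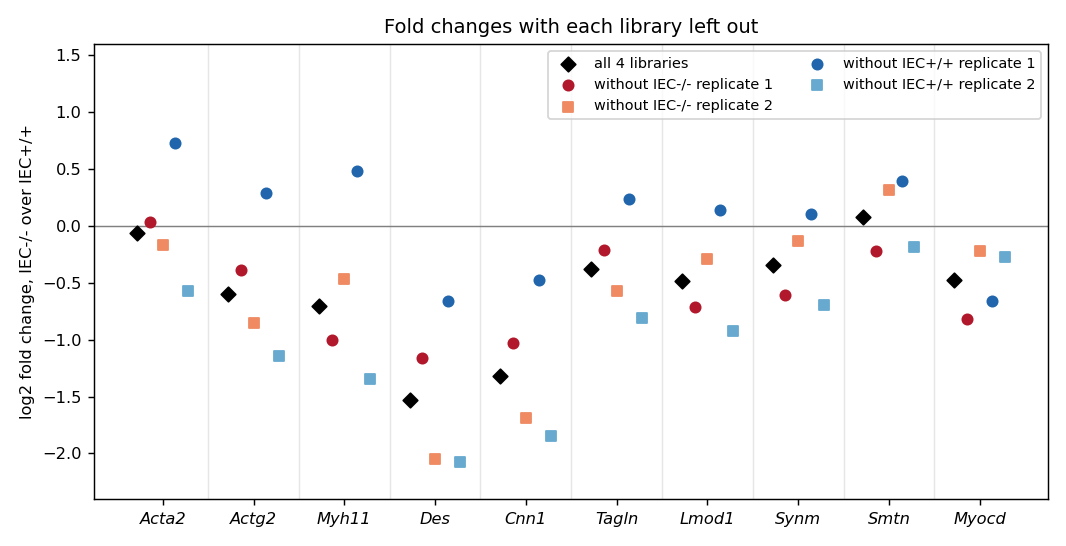
Log2 fold change of IEC-/- over IEC+/+ for each contractile gene with all 4 libraries and with each library left out (edgeR). Without IEC+/+ replicate 1 the points of 7 genes lie above 0, and only Des, Cnn1 and Myocd stay below 0 in every fit shown.

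The wider contractile machinery, a list of 26 other genes of myosin light chains, tropomyosins, adhesion plaques and their regulators, also had its highest sum in IEC+/+ replicate 1, by a smaller margin. IEC+/+ replicate 1 was the highest library for 17 of the 26, against 26.2% of all genes tested. The sums were 3497 and 3361 CPM in IEC-/- tumours, against 4368 and 3604 CPM in IEC+/+ tumours. By edgeR 0 of the 26 were called, against 0.884% of all genes tested, and the median log2 fold change was -0.10. At an unadjusted p under 0.05 by edgeR, 2 were lower, against 9.12%, and 0 higher, against 7.50%. DESeq2 and the exact test of edgeR each called 1 (Dstn, lower), against 5.04% and 3.40% of their genes. By limma-voom 0 were called, against 0.469%. Dstn encodes destrin, an actin-depolymerizing protein found in most cell types. It had 679 and 676 CPM in IEC-/- tumours, against 1139 and 1019 CPM in IEC+/+ tumours (log2 fold change -0.67, SE 0.12, edgeR adjusted p = 0.0783). The groups stood apart with little spread inside each. Myl6, a myosin light chain also made outside muscle, had 258 and 254 CPM in IEC-/- tumours, against 370 and 319 CPM in IEC+/+ tumours (log2 fold change -0.43, edgeR adjusted p = 0.198). Pgm5, which encodes aciculin of muscle adhesion plaques, had 5.83 and 4.27 CPM in IEC-/- tumours, against 20.3 and 6.02 CPM in IEC+/+ tumours (log2 fold change -1.38, edgeR adjusted p = 0.329). In Pgm5, IEC+/+ replicate 1 alone was far above the rest.

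Of the receptors, channels and enzymes that trigger or relax contraction, 1 passed the test. Chrm3 encodes the muscarinic receptor M3, which drives contraction of gut muscle in response to acetylcholine and is also made by epithelium. It had 4.60 and 5.30 CPM in IEC-/- tumours, against 0.463 and 0.416 CPM in IEC+/+ tumours, and so rose in IEC-/- (log2 fold change 3.48, SE 0.41, edgeR adjusted p = 0.0428). Its order of libraries was unlike that of the 10 contractile genes. Adjusted p was 0.416 without IEC+/+ replicate 1 and 0.231 without replicate 2, with log2 fold changes of 3.55 and 3.40. With all 4 libraries the adjusted p of Chrm3 was 0.0595 by limma-voom, 9.58e-08 by DESeq2 and 6.67e-08 by the exact test of edgeR. Of the 20 genes in this list 16 could be tested, and the median log2 fold change was -0.07. By edgeR 1 was called higher, against 0.120% of all genes tested, and 0 lower, against 0.763%. At an unadjusted p under 0.05 by edgeR, 1 was higher, against 7.50%, and 1 lower, against 9.12%. DESeq2 also called Atp2a2, a calcium pump gene, lower, against 5.04% of its genes. Kcnmb1, the smooth muscle subunit of the large-conductance potassium channel, had 7.34 and 7.59 CPM in IEC-/- tumours, against 8.95 and 3.63 CPM in IEC+/+ tumours, again with the IEC-/- values between the others. Tacr2, Ryr2 and Pln, known from gut or cardiac muscle, had at most 0.386 CPM in any library and were not tested, nor was Chrm2 (0.863 CPM at most).

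Transcription regulators of smooth muscle genes did not pass as single genes. By edgeR 0 of 10 were called, against 0.884% of all genes tested, with a median log2 fold change of -0.07. At an unadjusted p under 0.05 by edgeR, 2 were lower, against 9.12%, and 0 higher, against 7.50%. DESeq2 and the exact test each called 1 (Klf4, lower), against 5.04% and 3.40% of their genes. By limma-voom 0 were called, against 0.469% of all genes tested. Srf, the serum response factor gene, had 68.0 and 66.0 CPM in IEC-/- tumours, against 71.7 and 74.8 CPM in IEC+/+ tumours, and did not share the peak of the contractile genes in IEC+/+ replicate 1. That library was the highest for 4 of the 10 regulators, against 26.2% of all genes tested. The sum of the 10 was highest there, with 672 and 623 CPM in IEC-/- tumours, against 771 and 701 CPM in IEC+/+ tumours. That peak of the sum rests on Klf4, which gave 217 CPM in IEC+/+ replicate 1 and at most 134 CPM in any other library. Klf4, a repressor of contractile genes in cultured muscle that differentiated colon epithelium also makes, had 77.8 and 74.8 CPM in IEC-/- tumours, against 217 and 134 CPM in IEC+/+ tumours (log2 fold change -1.20, SE 0.24, edgeR adjusted p = 0.0991). Gata6 had 56.1 and 51.4 CPM in IEC-/- tumours, against 68.2 and 72.2 CPM in IEC+/+ tumours (edgeR adjusted p = 0.211). Tead1 had 232 and 210 CPM in IEC-/- tumours, against 172 and 193 CPM in IEC+/+ tumours (edgeR adjusted p = 0.374).

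Markers of other cells that could carry some of the same transcripts were summed beside the contractile genes. Fibroblast markers (12 genes) summed to 2552 and 2263 CPM in IEC-/- tumours, against 3848 and 2390 CPM in IEC+/+ tumours. Of the 12, 9 were highest in IEC+/+ replicate 1, against 26.2% of all genes tested. Pericyte markers (8 genes) summed to 297 and 302 CPM in IEC-/- tumours, against 326 and 270 CPM in IEC+/+ tumours. These sums stood in the order of the contractile sums but with a narrower spread. Of them Rgs5 gave 137 and 124 CPM in IEC-/- tumours, against 146 and 107 CPM in IEC+/+ tumours. Only 3 of the 7 pericyte genes tested were highest in IEC+/+ replicate 1, against 26.2% of all genes tested. Epithelial markers (8 genes) summed to 6028 and 5661 CPM in IEC-/- tumours, against 10296 and 8865 CPM in IEC+/+ tumours, so that IEC+/+ replicate 1 was highest here too. Their part in the contractile levels was not tested. By edgeR 0 of the fibroblast and 0 of the pericyte genes were called, against 0.884% of all genes tested. By DESeq2 0 were called, against 5.04% of its genes lower and 2.95% higher. By the exact test and limma-voom 0 were called, against 5.30% and 0.469%. At an unadjusted p under 0.05 by edgeR, 1 fibroblast gene was lower, against 9.12%, and 1 higher, against 7.50%, with 0 pericyte genes. Of the epithelial genes 6 of 8 were lower at an unadjusted p under 0.05 by edgeR, against 9.12% of all genes tested, and 1 fell, Krt20 (log2 fold change -2.86, SE 0.36, edgeR adjusted p = 0.0461), a keratin of differentiated epithelium with 51.4 and 26.3 CPM in IEC-/- tumours, against 327 and 239 CPM in IEC+/+ tumours. Over all genes tested edgeR called 0.763% lower. DESeq2 called 6 of the 8 lower (Cdh1, Cldn7, Krt19, Krt20, Krt8 and Vil1), against 5.04% of its genes. The exact test called 4 (Krt19, Krt20, Krt8 and Vil1), against 3.40%, and limma-voom 1 (Krt20), against 0.409%. Like the other calls of edgeR, that of Krt20 was lost without IEC+/+ replicate 1 (adjusted p = 0.417 by edgeR) or replicate 2 (0.210), with log2 fold changes of -2.62 and -3.07. With library totals in place of TMM its adjusted p was 0.0510.

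Endothelial (7 genes) and leukocyte markers (7 genes) were not highest in IEC+/+ replicate 1. Endothelial sums were 252 and 235 CPM in IEC-/- tumours, against 199 and 190 CPM in IEC+/+ tumours, and leukocyte sums were 239 and 289 CPM in IEC-/- tumours, against 168 and 184 CPM in IEC+/+ tumours. Markers of the interstitial cells of Cajal (6 genes), the pacemakers of gut muscle, summed to 229 and 309 CPM in IEC-/- tumours, against 389 and 306 CPM in IEC+/+ tumours. Of these sums Ano1 gave 91.2 and 67.3 CPM in IEC-/- tumours, against 200 and 145 CPM in IEC+/+ tumours. Gja1 gave 98.5 and 194 CPM in IEC-/- tumours, against 159 and 127 CPM in IEC+/+ tumours. Only 1 of the 5 genes tested, Ano1, was highest in IEC+/+ replicate 1. The Kit and Ano1 of this list are also made by other cells of the tumour. Markers of enteric neurons and glia (10 genes) summed to 27.8 and 21.3 CPM in IEC-/- tumours, against 37.1 and 42.7 CPM in IEC+/+ tumours. Of this Ret, which tumour cells can also make, gave 16.3 and 4.54 CPM in IEC-/- tumours, against 29.4 and 33.2 CPM in IEC+/+ tumours. Sox10 and S100b had at most 0.343 CPM. Of the mesothelial markers (4 genes) Upk3b and Wt1 were at 0 in all libraries, and the list summed to 11.0 and 15.2 CPM in IEC-/- tumours, against 16.9 and 12.5 CPM in IEC+/+ tumours. Striated muscle markers (12 genes) summed to 6.40 and 10.8 CPM in IEC-/- tumours, against 9.65 and 10.2 CPM in IEC+/+ tumours. In these 6 lists edgeR called 0 genes. At an unadjusted p under 0.05 it had 1 endothelial and 2 leukocyte genes higher, 1 higher and 1 lower for the cells of Cajal, and 1 enteric gene lower. DESeq2 called Ano1 and Ret lower and Itgam higher, the exact test Ano1 lower, and limma-voom 0.

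**Figure D5:**
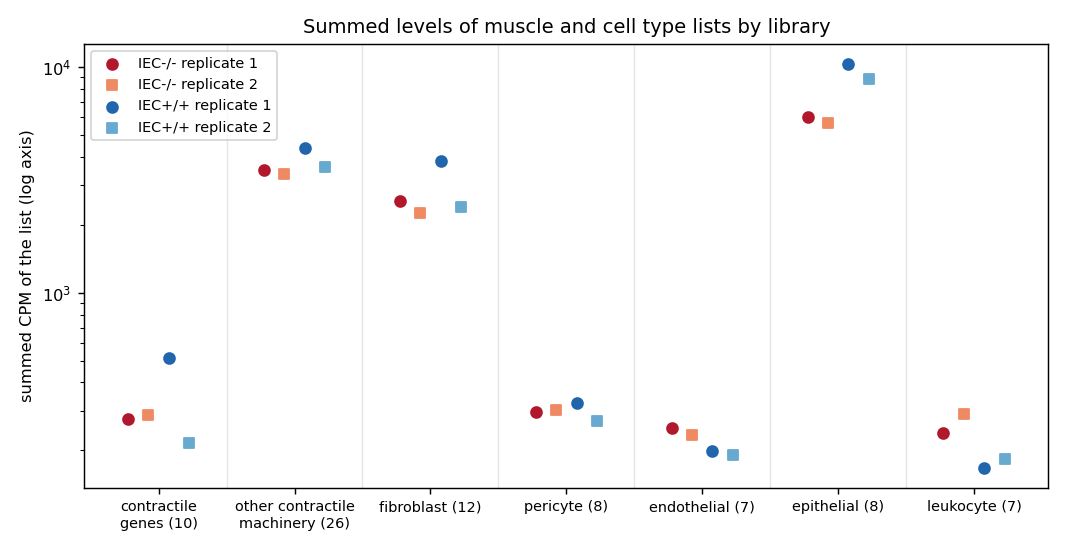
Summed CPM per library (log axis) of the 10 contractile genes, 26 other genes of the contractile machinery and 5 cell type lists, with 1 point per library. IEC+/+ replicate 1 is highest for the contractile, other machinery, fibroblast, pericyte and epithelial sums and not for the endothelial and leukocyte sums.

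The 8 genes with profiles most like the mean of the contractile genes included Egr3, Dusp18, Cav2, Niban1, Slc24a3, Cdsn and Fhl1. Likeness was the root-mean-square distance between centred log2(CPM + 0.5) profiles over the 4 libraries, among named genes averaging at least 1 CPM. It ran from 0.0451 for Egr3 to 0.0816 for Fhl1. The members themselves lay 0.145 (Tagln) to 0.555 (Des) from their own mean. Fhl1, which encodes a LIM domain protein abundant in muscle, had 109 and 109 CPM in IEC-/- tumours, against 227 and 94.5 CPM in IEC+/+ tumours. Cav2, a caveolin gene, had 27.9 and 26.7 CPM in IEC-/- tumours, against 58.3 and 28.6 CPM in IEC+/+ tumours. With 4 libraries, many genes can share such a profile, and none of these 8 was called by edgeR (adjusted p 0.397 to 0.622).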

How the data were processed

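Polyadenylated RNA of colon tumour tissue was sequenced in 4 libraries, 2 per group. Per the labels' protocols, RNA was taken with TRIzol and an NEBNext Ultra kit gave libraries read as paired ends. Per the submitters' processing notes the build was mm10, and the tools listed are edgeR, limma and TopHat, without roles. For counter, annotation and strand use, the sources used here give nothing. Raw read counts per gene symbol were deposited. Groups and replicate numbers come from the sample titles.

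The test was that of edgeR 4.0.16, run in R 4.3.3 (TMM scaling, factors 0.955 to 1.05, default expression filter, quasi-likelihood F-test, IEC-/- over IEC+/+), with p-values adjusted over all 16637 genes tested. All 10 members passed the filter. DESeq2 1.42.0, limma 3.58.1, other scalings, no filter, a replicate block and each library left out were alternatives. The script was tested on simulated data. Libraries of a group differed beyond sampling noise (chi-square per degree of freedom 35.4 and more), so none was counted as 1 library deposited again. This does not show separate mice. Members, lists and tests were chosen with earlier results of these data known. Named genes were the members, Gsk3b, list genes that were called or, in contraction lists with none, the 3 smallest p, and the 8 genes nearest in profile, of which 1 is not reported here. Epcam, Pcsk7, Srf, Kcnmb1, Ret, Tnnt2, Acta1, Mylpf, genes at or near 0 and those that another tool called were named after their values were seen. The library names follow the labels, which the Gsk3b count does not check. Coordinates come from RefSeq's GRCm38 annotation (mm10).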

Additional observations from a re-analysis of the deposited data

How the results depend on the processing

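The count of genes called by edgeR over all genes was 147. It was 83 with library totals alone, 376 without the expression filter, 78 by limma-voom, 882 by the exact test and 1265 by DESeq2, and it ran from 0 to 729 with 1 library left out. It was 0 without either IEC+/+ library. Of the 10 contractile genes 0 were called under every alternative but DESeq2, which called 1 (Des). Leaving out 1 library gave a median log2 fold change of the members of -0.87 to 0.19, against -0.48 with all libraries. The log2 ratio of the mean summed CPM was -0.38 with all libraries and -0.87 to 0.38 with 1 left out. The log2 difference in Acta2 to Myh11 was 0.53, and 0.17 to 0.90 with 1 library left out. With Cnn1 in place of Myh11 it was 1.28 and with Des 1.51, which restate the low fold changes of Cnn1 and Des. The log2 fold change of Acta2 was -0.06, but 0.054 with library totals and 0.080 by limma-voom. With 1 library left out it ran from -0.57 to 0.73, and Actg2 from -1.15 to 0.29, Myh11 from -1.35 to 0.48, Tagln from -0.81 to 0.24, Lmod1 from -0.92 to 0.14, Synm from -0.70 to 0.11 and Smtn from -0.22 to 0.39. Des, Cnn1 and Myocd stayed below 0 under every alternative run. The cause of these shifts was not tested.

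The labels do not say that equal replicate numbers pair the samples, and deviations of same-numbered libraries from their group means correlated by 0.16. A replicate block gave 211 called genes, 0 called members, a member median of -0.43 and a log2 fold change of 0.077 for Acta2. With it the edgeR adjusted p of Chrm3 was 0.0557, and that of Krt20 was 0.0285. Counts of Myocd were low, at 20 to 40 per library.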
